A study of Mus musculus with 4 samples.

Results

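The carbonic anhydrase family was examined in laser-captured Purkinje cells of the mouse cerebellum through 10 genes, Car2, Car3, Car4, Car5b, Car7, Car8, Car10, Car11, Car12 and Car14. Members were chosen by name. Every probe set whose platform annotation gave exactly 1 of these symbols was taken, which found 22 probe sets for all 10 genes, of 45037 probe sets and 18193 named genes in all. The data were 4 Affymetrix arrays in 1 group, from 2 untreated male C57BL/6J mice aged 8 weeks, and no allele or agent is named in the labels. The samples are called 2-1 and 2-2 (animal 2) and 1-1 and 1-2 (animal 1). The labels do not say whether the samples of 1 animal were separate captures, so a p-value here reflects only how these 4 samples scatter. The granule cell layer, which the design also names, was not analysed here.

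Carbonic anhydrases are zinc enzymes that turn carbon dioxide and water into bicarbonate and a proton. In neurons and glia they set how fast pH is buffered inside the cell and in the narrow space around synapses, and they supply the bicarbonate that flows through GABA-gated channels. The family also holds related proteins, Car8, Car10 and Car11, which lack histidines that hold the zinc and have no known enzymatic activity. Car8 is a textbook Purkinje cell protein that binds the inositol trisphosphate receptor, and its loss causes the gait disorder of the waddles mouse.

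The captures carried the signal of their labelled cell type. All 14 measured genes of a list of Purkinje cell markers, from which Car8 was left out, cleared the background threshold on all 4 arrays. Each array's threshold was set at the 95th percentile of 93 genes known from other organs, and it lay between 5.63 and 5.90 on the log2 scale. Genes of Bergmann glia and astrocytes passed it in 14 of 18 cases, those of granule cells in 5 of 16, of oligodendrocytes in 4 of 15, of interneurons in 3 of 9, of vessels and pericytes in 2 of 15, of microglia in 1 of 13, of choroid plexus and meninges in 1 of 12 and of red blood cells in 0 of 6. Among all named genes 28.5% passed, and the granule cell, oligodendrocyte and interneuron counts were near that share. Of the defining markers, each on its brightest probe set, Calb1, Pcp2 and Pcp4 of Purkinje cells and Slc1a3 and Aqp4 of glia passed on all 4 arrays and Gfap on 3. Gabra6 and Neurod1 of granule cells and Mbp of oligodendrocytes also passed on all 4, at mean levels of 9.30, 7.58 and 10.18. Nxph1 of interneurons passed on 2, at 6.36 and 6.96 in animal 2 and 4.58 and 3.92 in animal 1. Slc17a7, Mog, Slc6a5, Kit, Cx3cr1, C1qa, Tyrobp, Ttr, Kl, Dcn and Hba-a1 passed on none. Median deposited signals were 9.60 and 11.4 in animal 2 and 8.40 and 8.50 in animal 1. The hybridization controls were brighter in animal 2 as well, with a median ratio of 1.91 over 9 probe sets. Levels below are therefore quantile-normalized log2 signals, and deposited signals are given beside them.

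Of the 10 genes, 4 (Car8, Car7, Car2 and Car10) had a probe set above the threshold on every array, when each gene was read on its brightest probe set. Over all named genes the share was 28.5%. Car4 passed on 1 array, and Car3, Car5b, Car11, Car12 and Car14 passed on none. Counted by probe set, 7 of 22 passed on all 4 arrays, 2 on some arrays and 13 on none, against 20.6% passing on all 4 arrays among named probe sets. A probe set's brightness depends on its own sequence, so where one is called brighter or dimmer than another below, this is an order of signals and not of RNA amounts. In such captured tissue, fewer cells of a type and less RNA per cell cannot be told apart.

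**Figure D1:**
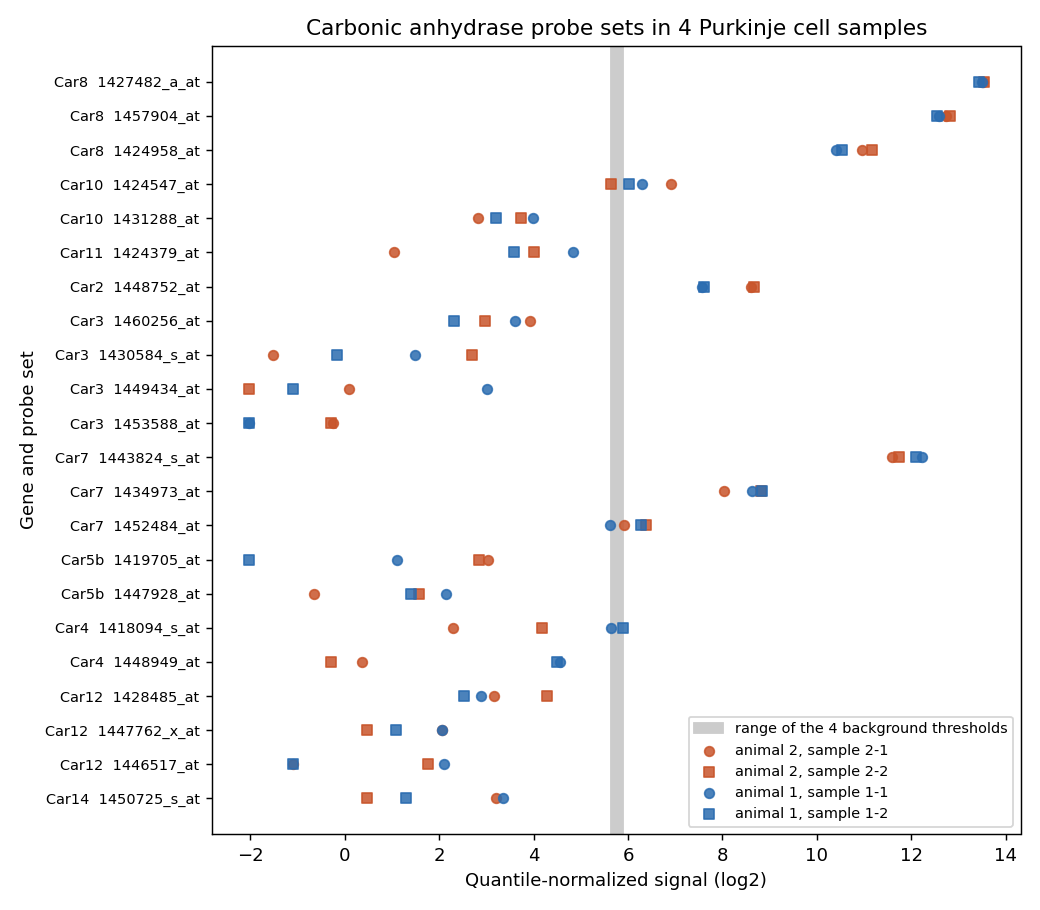
Quantile-normalized log2 signal (horizontal axis) of the 22 carbonic anhydrase probe sets (vertical axis) in each of the 4 samples, with animal 2 in orange and animal 1 in blue, and the range of the 4 background thresholds as a grey band. All 3 Car8 probe sets lie right of the band in every sample, as do Car2 and 2 of 3 Car7 probe sets, while 13 probe sets lie left of it in every sample.

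Among the related proteins without enzymatic activity, Car8 cleared the threshold with 3 of 3 probe sets, Car10 with 1 of 2 and Car11 with 0 of 1. On probe set 1427482_a_at, Car8 had deposited signals of 13273 and 14783 in samples 2-1 and 2-2, against 9850 and 9664 in samples 1-1 and 1-2. These values placed it 5th and 4th from the brightest of the array's 45037 probe sets in animal 2, and 6th and 8th in animal 1. Its normalized level was 13.50 ± 0.04 (SD, n = 2 animals). At such ranks quantile normalization gives nearly the same value on each array, so the small SD mostly reflects rank.

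The other Car8 probe sets were dimmer and also passed the threshold on all 4 arrays. Probe set 1457904_at had deposited signals of 7481 and 8806 in animal 2 and of 5370 and 5215 in animal 1, with a normalized level of 12.68 ± 0.15 (SD, n = 2 animals). Probe set 1424958_at had 2122 and 2960 in animal 2 and 1157 and 1263 in animal 1, with a level of 10.77 ± 0.42. On all 3 probe sets both deposited values of animal 2 were above both of animal 1. The arrays of animal 2 were brighter in general, as given above, so this order is not particular to Car8.

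Car10 is a secreted protein that binds neurexins at the synapse. On 1424547_at it had deposited signals of 134.8 and 66.7 in animal 2, against 64 and 53.3 in animal 1, and a normalized level of 6.22 ± 0.09 (SD, n = 2 animals). Sample 2-1 was the highest and sample 2-2 the lowest after normalization, at 6.92 and 5.63, so the small SD over animals hides a spread of 1.28 within animal 2. Sample 2-2 was only just above its threshold, which was also 5.63. Car10 no longer passed with values as deposited, with arrays scaled to a common trimmed mean, with the threshold at the 99th percentile or with the median over its probe sets. Its other probe set, 1431288_at, was below the threshold on every array at 3.44 ± 0.23.

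Car11, the closest relative of Car10 and also secreted, had 1 probe set (1424379_at). Its deposited signals were 2 and 19.7 in animal 2, against 24.4 and 10.8 in animal 1. No array passed the threshold, and the animals overlapped, since the 2 samples of animal 2 differed by 2.96 after normalization.

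Among the cytosolic enzymes, Car7 and Car2 cleared the threshold and Car3 did not. Car7 is an enzyme of neurons known for supplying bicarbonate to GABA-gated channels. On 1443824_s_at its deposited signals were 3296 and 4212 in animal 2, against 4069 and 3775 in animal 1, and its normalized level was 11.92 ± 0.36 (SD, n = 2 animals). The deposited values overlapped between the animals, but the normalized ones did not, at 11.59 and 11.73 in animal 2 and 12.23 and 12.11 in animal 1.

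The other Car7 probe sets gave lower levels. On 1434973_at the deposited signals were 290.2 and 594.7 in animal 2 and 327.8 and 385.7 in animal 1, for a level of 8.58 ± 0.22 (SD, n = 2 animals). On 1452484_at they were 65.9 and 112.9 in animal 2 and 40.4 and 63.9 in animal 1, for a level of 6.05 ± 0.14, and sample 1-1 was below the threshold. The level of Car7 thus differed by 5.87 on the log2 scale between its probe sets. The suffix of the brightest one, _s_at, marks probes that can bind several transcripts, and no probe sequence was used here to tell which.

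RefSeq (build GRCm38.p6) gives Car7 a choice of 3 transcription starts on the plus strand of chromosome 8, and the array files do not say which the cells used. The windows are shown because Car7 was the enzyme with the most probe sets over the threshold here. Each runs 5′ to 3′ from 250 bases before to 50 bases after a start. Capitals mark GGGCGG, the letters of a GC box, on either strand (CCGCCC on the other).
Car7 start at chr8:104534450-104534749: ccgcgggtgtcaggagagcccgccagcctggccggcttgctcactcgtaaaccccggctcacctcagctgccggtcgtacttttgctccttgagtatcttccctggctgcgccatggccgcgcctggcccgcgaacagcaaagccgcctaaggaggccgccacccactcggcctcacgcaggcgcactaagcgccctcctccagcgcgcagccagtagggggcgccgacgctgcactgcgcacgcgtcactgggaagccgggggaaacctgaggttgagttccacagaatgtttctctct
Car7 start at chr8:104540557-104540856: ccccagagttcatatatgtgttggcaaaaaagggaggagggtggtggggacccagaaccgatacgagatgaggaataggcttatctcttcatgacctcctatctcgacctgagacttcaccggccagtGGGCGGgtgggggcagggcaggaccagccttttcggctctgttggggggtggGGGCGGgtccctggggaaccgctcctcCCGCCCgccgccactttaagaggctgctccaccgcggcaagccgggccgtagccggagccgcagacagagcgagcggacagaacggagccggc
Car7 start at chr8:104541059-104541358: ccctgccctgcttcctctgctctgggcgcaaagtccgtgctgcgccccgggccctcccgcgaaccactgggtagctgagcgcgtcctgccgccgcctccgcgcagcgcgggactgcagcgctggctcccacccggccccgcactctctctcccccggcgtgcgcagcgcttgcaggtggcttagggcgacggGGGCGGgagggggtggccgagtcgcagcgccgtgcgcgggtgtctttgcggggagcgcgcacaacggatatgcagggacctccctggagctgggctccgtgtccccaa
The first window holds no GC box, the second holds 3 and the third 1. Their GC content was 66.7%, 64.3% and 74.0%, against a median of 52.7% over 32851 promoter windows of the same length. GGGCGG was found in 6 of 11 windows of the 7 members matched in this table (Car4, Car5b, Car7, Car10, Car11, Car12 and Car14) and in 35.7% of all windows. TATAAA, searched on both strands, was found in 1 of the 11, that of Car4, and in 13.6% of all. AGGTCA, the core letters read by ROR receptors, was found in 1 of the 11, the second Car7 window, and in 16.3% of all. These are matches of letters only. Car2, Car3 and Car8 were not matched.

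Car2, the fast and widespread cytosolic enzyme that in brain is known best from oligodendrocytes, had 1 probe set (1448752_at). Its deposited signals were 427.1 and 536.6 in animal 2, against 155.8 and 162.2 in animal 1. Both samples of animal 2 were high and both of animal 1 low, with a normalized level of 8.61 and 8.67 in animal 2 and of 7.58 and 7.62 in animal 1. All 4 arrays passed the threshold.

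Car3, a slow enzyme of muscle, fat and liver, passed the threshold with 0 of 4 probe sets. Its brightest, 1460256_at, had deposited signals of 15 and 9.4 in animal 2 and of 11 and 4.7 in animal 1. The other 3 stayed at 7.7 or less in every sample (1430584_s_at, 1449434_at and 1453588_at).

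Car5b, the mitochondrial enzyme, was below the threshold on every array with both of its probe sets. On 1419705_at it had deposited signals of 8.4 and 8.5 in animal 2, against 1.9 and 0.2 in animal 1. On 1447928_at the signals were 0.7 and 3.5 in animal 2 and 4 and 2.7 in animal 1, so the probe sets differed in direction between the animals.

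The enzymes that face the outside of the cell were dim in these captures. Car4 is tethered to the outer membrane by a lipid anchor and is known in brain from the lining of capillaries. On 1418094_s_at its deposited signals were 4.8 and 22.4 in animal 2, against 40.9 and 49.3 in animal 1, and sample 1-2 alone passed its threshold, at 5.90 against 5.66. On 1448949_at they were 1.3 and 1 in animal 2 and 20.9 and 20 in animal 1. On both probe sets every sample of animal 2 lay below every sample of animal 1.

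Car12 and Car14 span the membrane with an outward-facing enzyme domain. The brightest of 3 Car12 probe sets, 1428485_at, had deposited signals of 9.1 and 24.5 in animal 2 and of 6.6 and 5.4 in animal 1. The other Car12 probe sets, 1447762_x_at and 1446517_at, had at most 4 in any sample. Car14 had signals of 9.4 and 1.7 in animal 2 and of 9.1 and 2.5 in animal 1 on its single probe set (1450725_s_at). Over the 13 probe sets above the threshold on no array, deposited signals ran from 0.2 to 24.5. A signal below the threshold was not detectable above background here, which does not show that the RNA was absent.

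The animals were then set against each other with limma over 11182 probe sets above the threshold on 2 or more arrays, of which 8 were members, from Car2, Car7, Car8 and Car10. None of the 8 was called after Benjamini-Hochberg adjustment over all probe sets, while 43 of 11182 (0.385%) were, 25 higher and 18 lower in animal 2. At an unadjusted p under 0.05 there were 4 of the 8 members and 1942 of all. The 14 probe sets below the filter were not tested.

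Car2 had the largest difference of the 8, at 1.04 ± 0.27 on the log2 scale (animal 2 minus animal 1, SE, limma adjusted p = 0.149), a ratio of 2.06. It was higher in both samples of animal 2 than in either of animal 1 and spread by 0.06 within animal 2 and by 0.04 within animal 1. The difference lay between 0.98 and 1.59 in every alternative run and was called only with values as deposited (1.59, adjusted p = 0.0391), a scale on which the tested probe sets together had a median of 0.47.

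Car8 differed by 0.60 ± 0.13 on 1424958_at (SE, limma adjusted p = 0.119), by 0.21 ± 0.06 on 1457904_at (adjusted p = 0.167) and by 0.06 ± 0.04 on 1427482_a_at (adjusted p = 0.502). All 3 were positive. With 1 sample left out, the difference on 1424958_at lay between 0.50 and 0.72. With values as deposited the 3 differences were 1.05, 0.62 and 0.52, and all were called. On that scale all tested probe sets had a median of 0.47, and 594 were called, 98.5% of them higher in animal 2.

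Car7 had the smallest adjusted p of the 8 on 1443824_s_at, at -0.51 ± 0.09 (SE, limma adjusted p = 0.0723). By limma it was called with only probe sets above the threshold on every array in the fit (adjusted p = 0.0347). The same held with the threshold at the 99th percentile (adjusted p = 0.0479). It was not called with the threshold at the 90th percentile (adjusted p = 0.112), with no filter (0.300) or with no trend (0.393). With 1 sample left out the difference lay between -0.57 and -0.43. With values as deposited it stood at -0.07 and was not called. The other Car7 probe sets stood at -0.30 ± 0.33 (1434973_at) and 0.20 ± 0.54 (1452484_at) and were not called, nor was Car10 at 0.12 ± 0.58. On 1434973_at the sign turned with values as deposited (0.22).

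Samples of the 2 animals did not overlap on 5 of the 8 member probe sets, 4 of them higher and 1 lower in animal 2, against 49.0% of all probe sets tested, in either direction. The median difference of the 8 was 0.16 and that of all probe sets tested -0.05. Within an animal the median spread of the 8 was 0.17 in animal 2 and 0.12 in animal 1, against 0.48 and 0.28 over all tested in those animals. The 8 were not matched in brightness to the other probe sets. In animal 2, Car8 on 1427482_a_at (level 13.50) spread by 0.02 and Car10 on 1424547_at (level 6.22) by 1.28.

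**Figure D2:**
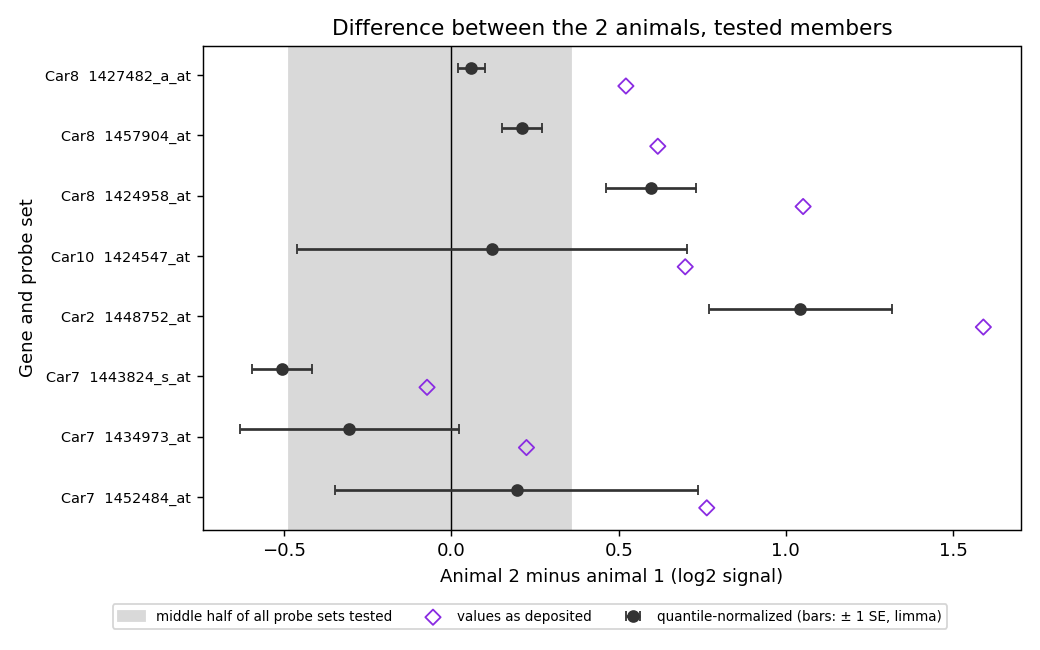
Difference between the animals (horizontal axis, animal 2 minus animal 1, log2 signal) for the 8 tested probe sets of Car8, Car10, Car2 and Car7 (vertical axis), on quantile-normalized values with bars of 1 SE from limma and, as open diamonds, on values as deposited. The grey band holds the middle 50% of all probe sets tested on quantile-normalized values, from -0.49 to 0.36. On those values Car2 (1.04), Car8 on 1424958_at (0.60) and Car7 on 1443824_s_at (-0.51) lie outside it. The band does not apply to the diamonds, since on values as deposited all probe sets tested had a median of 0.47.

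Markers of cells known for Car2 and Car4 were read in the same samples. The summed level of 15 oligodendrocyte genes was 12.22 and 11.81 in animal 2 and 12.42 and 12.36 in animal 1, with Cnp on 1437341_x_at as its brightest probe set (-0.69, animal 2 minus animal 1). The single genes of the list did not move one way. All 5 tested probe sets of Mbp, a myelin protein, had higher means in animal 2, as Car2 did, with differences of 1.37 (1419646_a_at), 1.19 (1433532_a_at), 0.57 (1454651_x_at), 0.16 (1436201_x_at) and 0.13 (1456228_x_at). On 1433532_a_at Mbp was at 10.23 and 10.01 in animal 2 and at 9.09 and 8.76 in animal 1 (limma adjusted p = 0.0723). Olig1, a transcription factor of these cells, differed by 0.52 (1416149_at), and Mog stayed under the threshold on all 4 arrays. Of 9 probe sets of this list tested between the animals, 0 were called by limma, and 3 had an unadjusted p under 0.05. There were 6 positive and 3 negative differences with a median of 0.16, but 5 of these 9 probe sets were those of Mbp. With each of the 15 genes read once, on its brightest probe set and dim genes included, the median difference was -0.69. The part of oligodendrocytes in the Car2 difference was not tested.

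Car8 can be set beside the Purkinje cell list in the same way. Of its 26 tested probe sets 14 had positive and 11 negative differences, with a median of 0.06. Those called were Pcp2 on 1419085_at, higher in animal 2 by 0.57 (limma adjusted p = 0.0394), and Calb1 on 1448738_at, at -0.88 (adjusted p = 0.0353). Calb1 on its brightest probe set (1417504_at) was at 13.68 on all 4 arrays, where the normalization fixes the value.

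The summed level of 15 vessel and pericyte genes was 9.36 and 9.10 in animal 2 and 9.91 and 10.10 in animal 1, which is the direction of the Car4 signals. Such a sum follows its brightest genes, and 2 of the 15 passed the threshold on all 4 arrays and 9 on none. Of 6 tested probe sets 5 had lower means in animal 2 and 1 a higher mean, and 0 were called by limma. A lower sum in animal 2 was not particular to vessels. The sums of the oligodendrocyte, granule cell, glia, microglia and choroid plexus and meninges lists were also lower in animal 2. Those of the Purkinje cell and interneuron lists were higher. With each gene read once, on its brightest probe set, the median difference was -0.66 for vessels, -1.11 for granule cells and -0.27 for glia. It was positive for microglia (0.67) and for choroid plexus and meninges (0.87), against their sums. In these 2 lists, 11 of 13 and 11 of 12 genes passed the threshold on no array. Cldn5, a tight junction protein of capillaries, was at 3.68 and 4.67 in animal 2 and at 5.81 and 6.25 in animal 1, above the threshold on 2 arrays. Pecam1 was below the threshold on every array, and the pericyte gene Rgs5 was above it on all 4, at 6.76 and 6.53 in animal 2 and 6.33 and 6.57 in animal 1. The part of vessel cells or of other cells in the Car4 difference was not tested. Both Car4 probe sets were too dim for the test between the animals. Red blood cell genes, which include Car1, were below the threshold in all 6 cases, and Alas2 among them was at 0.22 or less in every sample.

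The granule cell list of 16 genes also moved with the animals, at a summed level of 10.95 and 11.05 in animal 2 and of 12.08 and 12.37 in animal 1. Of its 11 tested probe sets 11 had lower means in animal 2, with a median difference of -1.29. By limma, 10 had an unadjusted p under 0.05 and 1 was called, Zic1 on 1439627_at (-1.29, adjusted p = 0.0482). Its marker Neurod1 was at 6.44 and 6.74 in animal 2 and at 8.38 and 8.75 in animal 1, Gabra6 differed by -1.23 (1417121_at), and Slc17a7 was under the threshold on all 4 arrays. Bergmann glia and astrocyte genes summed to 13.91 and 13.77 in animal 2 and to 14.12 and 14.11 in animal 1. The part of granule cells and glia in the differences of Car2, Car4, Car7 and Car8 was not tested.

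**Figure D3:**
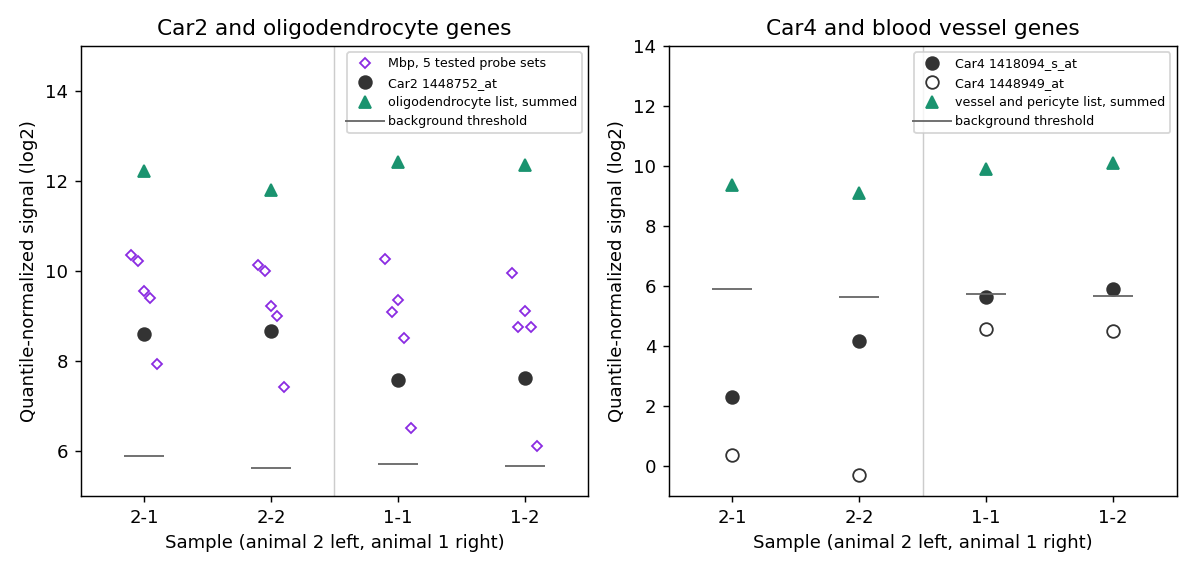
Quantile-normalized log2 signal (vertical axis) in each sample (horizontal axis, animal 2 left, animal 1 right). The left panel shows Car2 with the 5 tested Mbp probe sets (diamonds) and the summed level of 15 oligodendrocyte genes (triangles), and the right panel shows both Car4 probe sets with the summed level of 15 vessel and pericyte genes. Dashes mark the background threshold of each array. Car2 is higher in animal 2 (8.61 and 8.67) than in animal 1 (7.58 and 7.62), the Mbp probe sets differ by 0.13 to 1.37 in the same direction and the oligodendrocyte sum is lower in animal 2. Car4 and the vessel sum are both lower in animal 2, as are the sums of the granule cell, glia, microglia and choroid plexus and meninges lists, which are not shown. The median difference over single genes was positive for the microglia (0.67) and the choroid plexus and meninges (0.87) lists.

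Other genes of the family were measured beside the members. Car1, Car5a, Car6, Car9, Car13 and Car15 were below the threshold on every array, with Car15 (1449234_at) at 4.38 ± 0.95 and Car13 (1421308_at) at 4.16 ± 0.71 as the brightest of them (SD, n = 2 animals). Ptprz1 and Ptprg are receptor phosphatases with a carbonic anhydrase-like domain outside the cell. Ptprz1, best known from glia, passed on all 4 arrays with 3 of 3 probe sets, the brightest (1452284_at) at 9.79 ± 0.59. Ptprg passed on 3 arrays with its brightest probe set (1434360_s_at), at 6.13 ± 0.99. Neither had a probe set called between the animals.

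Carbonic anhydrases work with transporters that carry bicarbonate, protons and lactate across the membrane. Among 11 measured bicarbonate transporter genes, 3 passed the threshold on all 4 arrays, near the 28.5% of all named genes. Slc4a10, a sodium-driven bicarbonate transporter of neurons, was at 12.00 ± 0.22 on its only probe set (1417672_at). Slc4a4, a sodium bicarbonate cotransporter strong in astrocytes, was at 9.16 ± 0.76 (1434096_at), and the anion exchanger Slc4a3 at 6.91 ± 0.43 (1418485_at) (SD, n = 2 animals). These were the brightest probe sets of both genes. Dimmer ones, such as 1450169_at of Slc4a4 (1.79) and 1453687_at of Slc4a3 (2.18), were below the threshold on every array. Another 7 passed on none, among them Slc4a1, Slc4a5, Slc4a8 and Slc4a9.

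Among 14 genes of proton and lactate transport, 6 passed on all 4 arrays, against 28.5% of all named genes. Nptn, a chaperone of lactate transporters also called neuroplastin, was at 11.73 ± 0.27 (1415821_at), the sodium-proton exchanger Slc9a3 at 9.44 ± 0.17 (1441236_at) and Bsg, another such chaperone, at 7.77 ± 0.36 (1456616_a_at) (SD, n = 2 animals). A further probe set of Slc9a3 (1432771_at, at 1.90) and of Nptn (1441457_at, at 4.17) was below the threshold on every array. Slc9a2, Slc9a8, Slc9a9 and Slc16a3 were among 7 that passed on none. Of 6 and 7 probe sets of these 2 lists tested between the animals, 0 were called by limma, and 4 and 1 had an unadjusted p under 0.05.

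Of 6 listed binding partners of the related proteins, 4 genes were measured, and Itpr1, whose product is the receptor that Car8 binds, was not analysed here. Nrxn3, a neurexin, passed on all 4 arrays with 2 of 5 probe sets, the brightest (1433788_at) at 9.97 ± 0.12 (SD, n = 2 animals). Nrxn2 passed with 1 of 2, at 6.53 ± 0.17 (1435907_at). The inositol trisphosphate receptor genes Itpr2 and Itpr3 were below the threshold on every array with all their probe sets. None of the 4 probe sets tested between the animals was called, and 0 had an unadjusted p under 0.05.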

How the data were processed

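Members and lists were chosen with earlier results of these data known. Per the submitters' processing notes, GCOS produced the deposited values, which are linear intensity signals with 1 value for each probe set on an array. The version and settings of GCOS are not stated there, and detection calls were not used here. The table holds 45101 probe sets, 64 of them controls, which were left out, and no column of other samples (0). Genes came from the platform annotation, in which 34945 probe sets had 1 symbol, 932 several and 9160 none; the symbols of all 10 members stood in RefSeq (GRCm38.p6) under the same gene identifier. Signals under 0.1 were set to 0.1 and log2 was taken. Trimmed means (2% from each end) differed by 46.6%, above a limit of 5%, so quantile normalization was applied. Levels are means ± SD over 2 animals, each the mean of its samples. Animals were compared with lmFit and eBayes with trend in limma 3.58.1 (R 4.3.3; 2 residual degrees of freedom) at a false discovery rate of 0.05. Of 101 background genes, 93 were measured and 3 passed their threshold on all 4 arrays. The fit was checked on simulated data with 200 probe sets changed. It missed most changes of 2-fold there, so a probe set not called may still differ between the animals. All members were named, with every measured gene of the family and partner lists, the 3 brightest passing and 4 failing genes of transport lists and the defining markers of cell types. No gene was sought for a pattern like a member's, since 4 arrays give too few points. The number of arrays limits precision. Alternatives were other thresholds, normalizations, offsets, filters, probe set rules, no trend and leaving out each sample.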

Additional observations from a re-analysis of the deposited data

How the results depend on the processing

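The count of member genes above background was 4, and 3 or 4 in all 12 alternatives, and that of probe sets was 7, and 6 to 8 in all 10. Among all named probe sets the share was 20.6%. It was 14.2% with the threshold at the 99th percentile (6 of 22 members) and 30.5% at the 90th (8 of 22 members). Over all named genes the share was 28.5%. It stood at 16.2% when each gene was read on its median probe set, at 40.4% with the threshold at the 90th percentile and at 38.7% with passing on 2 or more arrays, under which last 2 settings the members' count of 4 of 10 (40.0%) is near the share of all genes. The count of members called between the animals was 0, but 4 with values as deposited, 1 with only probe sets above the threshold on every array, 1 with the threshold at the 99th percentile, and 0 to 2 when a sample was left out (2 without 2-1, 1 without 2-2). Over all probe sets the calls were 43, of which 58.1% were higher in animal 2. They were 594 (98.5% higher) with values as deposited, 185 with the filter on all 4 arrays, 130 and 7 with the threshold at the 99th and 90th percentile, 5 with no filter, 0 with no trend and 7 to 1147 without 1 sample. In the last case the residual spread came from 1 animal's pair alone. With no filter, 6 of the 22 members had an unadjusted limma p under 0.05 and 0 were called. How many of all 45037 probe sets had such a p was not counted, so the 6 cannot be read as many or few. Signs turned for Car7 on 1434973_at with values as deposited (0.22) and without a sample (-0.69 to 0.088), for Car7 on 1452484_at without a sample (-0.14 to 0.53) and for Car10 without a sample (-0.51 to 0.76); the cause was not tested.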
